A study of Caenorhabditis elegans with 8 samples.

Results

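The 10 genes described here encode secreted or membrane-bound immune effectors of the nematode *C. elegans*. They are *dod-22*, F55G11.8, C17H12.8, C17H12.6, *sysm-1*, *irg-4*, *irg-5*, K08D8.5, *dod-24* and *irg-6*, picked by name from the 46928 genes of the count table with their levels in urolithin A (UA)-treated and control animals already known. All 10 had enough counts to be tested, among 13720 genes of the table that had. Because of how they were picked, the difference between UA and control is given for them as a description without a p-value. Their CUB-like domains and their dependence on p38 are background knowledge and were not examined with these files.

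RNA was measured in whole wild-type (N2) nematodes fed *E. coli* OP50 at 20 °C, in 4 control populations without UA and 4 populations given UA at 50 μM in the growth medium. UA is a compound that gut bacteria make from plant ellagitannins and that is known as an inducer of mitophagy. The description deposited with the data has the treatment run from the last larval stage to day 4 of adulthood, whereas the methods give a harvest of day 1 adults, so the age of the animals is uncertain. Each library was made from a separately harvested population, and since it holds whole animals, fewer cells expressing a gene and less RNA per cell cannot be told apart.

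In *C. elegans* the intestine is the main surface that meets swallowed bacteria. A conserved p38 MAPK cascade works there, in which the adaptor TIR-1 and the kinases NSY-1 and SEK-1 activate the p38 kinase PMK-1, which acts on the transcription factor ATF-7. Its known targets include genes with a CUB-like domain, C-type lectins, lysozymes and ShK-like peptides, several of which serve as reporters of the pathway. The *dod* genes were named as genes downstream of DAF-16, the FOXO factor of insulin signaling, and the *irg* genes for their response to infection.

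Of the 10 genes, 8 lie on chromosome IV of the WBcel235 assembly, and 5 of these lie within a stretch of 88.5 kb (coordinates from the deposited table). In this stretch, K08D8.5 (CELE_K08D8.5, 12910647 to 12912129) and *irg-6* (CELE_C32H11.1, 12912722 to 12914969) are neighbors on the reverse strand, 592 bases apart. *dod-24* (CELE_C32H11.12, 12940106 to 12941354, reverse strand) lies 25136 bases further on. F55G11.8 (CELE_F55G11.8, 12962808 to 12964645) and *dod-22* (CELE_F55G11.5, 12965374 to 12967392) are neighbors on the forward strand, 728 bases apart. The pair C17H12.8 (CELE_C17H12.8, 6818703 to 6820575, forward) and C17H12.6 (CELE_C17H12.6, 6821065 to 6822506, reverse) lies elsewhere on chromosome IV, with the gene ends 489 bases apart. *irg-4* (CELE_F08G5.6) is found at 12435833 to 12438236 on the forward strand of chromosome IV. *sysm-1* (CELE_T24B8.5) is on chromosome II (9082626 to 9083193) and *irg-5* (CELE_F35E12.5) on chromosome V (13737010 to 13738474), both on the reverse strand. All 10 are protein-coding, and none shares bases with another annotated gene except C17H12.8, which overlaps a piRNA locus on the same strand. Genes that are similar in sequence can share reads, and whether these do was not examined.

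Each library held between 41890058 and 43055719 counts. Values are given as CPM, counts scaled by library size after TMM normalization. Among counts from 1 to 20 in the table, 77.1% of 45403 values were even, and 70 of the 80 counts of these 10 genes were even. The methods speak of fragments and the column heads of reads, and which of them a count stands for was not settled here. The libraries of replicates 1 and 2 stood apart from those of replicates 3 and 4 in both conditions, by -29.8 to -11.7 against 13.7 to 27.5 on the first principal component (34.1% of the variance). The labels do not name this division. Replicates 1 and 2 and replicates 3 and 4 are therefore called replicate subsets below, and each subset holds 2 control and 2 UA libraries.

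The *dod* genes differed widely between the conditions. *dod-22* had 27.8, 24.6, 35.8 and 44.1 CPM in control replicates 1 to 4 and 4.51, 4.15, 7.16 and 6.67 CPM in UA replicates 1 to 4. Control and UA values were far apart in this gene, and the fitted level was 5.88-fold lower in UA (log2 fold change -2.56, standard error 0.23). *dod-24* had 75.5, 61.3, 106.8 and 121.9 CPM in control and 16.7, 23.5, 38.8 and 26.4 CPM in UA. Its 4 UA values were all below the 4 control values, with a fitted level 3.47-fold lower in UA (log2 fold change -1.80, standard error 0.27). In both genes the control values of replicates 3 and 4 were above those of replicates 1 and 2.

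The 3 *irg* genes did not behave alike. *irg-4*, a CUB-like gene used as a readout of PMK-1 activity, had 9.07, 6.09, 12.7 and 21.1 CPM in control replicates 1 to 4 and 0.865, 0.969, 3.70 and 3.69 CPM in UA. Its level was 5.31-fold lower in UA (log2 fold change -2.41), and the standard error of 0.54 was the largest among the 10 genes. The control values spread 3.46-fold and the UA values 4.28-fold, but the conditions did not overlap. *irg-5*, another CUB-like p38 readout, had 3.16, 3.36, 1.30 and 2.31 CPM in control and 3.87, 3.69, 2.404 and 1.85 CPM in UA. This is the only one of the 10 genes in which UA and control values overlapped, and its log2 fold change was 0.22 (standard error 0.32). *irg-6* was the least abundant gene of the set, with 1.16, 1.96, 2.29 and 2.07 CPM in control and 1.002, 0.923, 1.11 and 1.04 CPM in UA. Its conditions were separated only narrowly, by control replicate 1, and its level was 1.83-fold lower in UA (log2 fold change -0.87, standard error 0.23).

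*sysm-1*, better known as T24B8.5, encodes a ShK-like peptide, and its promoter drives a widely used reporter of the p38 pathway. Its values were 73.9, 68.1, 63.3 and 73.8 CPM in control replicates 1 to 4 and 28.8, 23.2, 37.96 and 39.7 CPM in UA. The control libraries lay close together, with a coefficient of variation of 7.29%, while the UA libraries of replicates 3 and 4 lay above the others. Its level was 2.15-fold lower in UA (log2 fold change -1.11, standard error 0.15).

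The other 4 CUB-like genes carry no descriptive name. C17H12.8 was the most abundant of the set, with 191.6, 175.8, 172.1 and 176.2 CPM in control and 78.3, 78.8, 69.8 and 82.2 CPM in UA. It was also the most even one, with a coefficient of variation of 4.85% in control and 6.84% in UA, and its level was 2.32-fold lower in UA (log2 fold change -1.21, standard error 0.06). C17H12.6, its neighbor, had 4.56, 4.55, 5.16 and 7.93 CPM in control and 1.09, 1.15, 2.21 and 2.22 CPM in UA, 3.32-fold lower (log2 fold change -1.73, standard error 0.29). Per kilobase of exon, C17H12.8 was 32.3 times as abundant as C17H12.6 in control, although the genes end 489 bases from each other. F55G11.8, the neighbor of *dod-22*, had 8.77, 7.46, 11.13 and 12.1 CPM in control and 2.80, 3.14, 5.34 and 5.30 CPM in UA, 2.38-fold lower (log2 fold change -1.25, standard error 0.25). K08D8.5 had 38.9, 32.9, 41.1 and 37.8 CPM in control and 18.4, 18.8, 29.1 and 28.7 CPM in UA. The difference in K08D8.5 was the smallest among the 9 genes lower in UA, at 1.59-fold (log2 fold change -0.66, standard error 0.16).

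**Figure D1:**
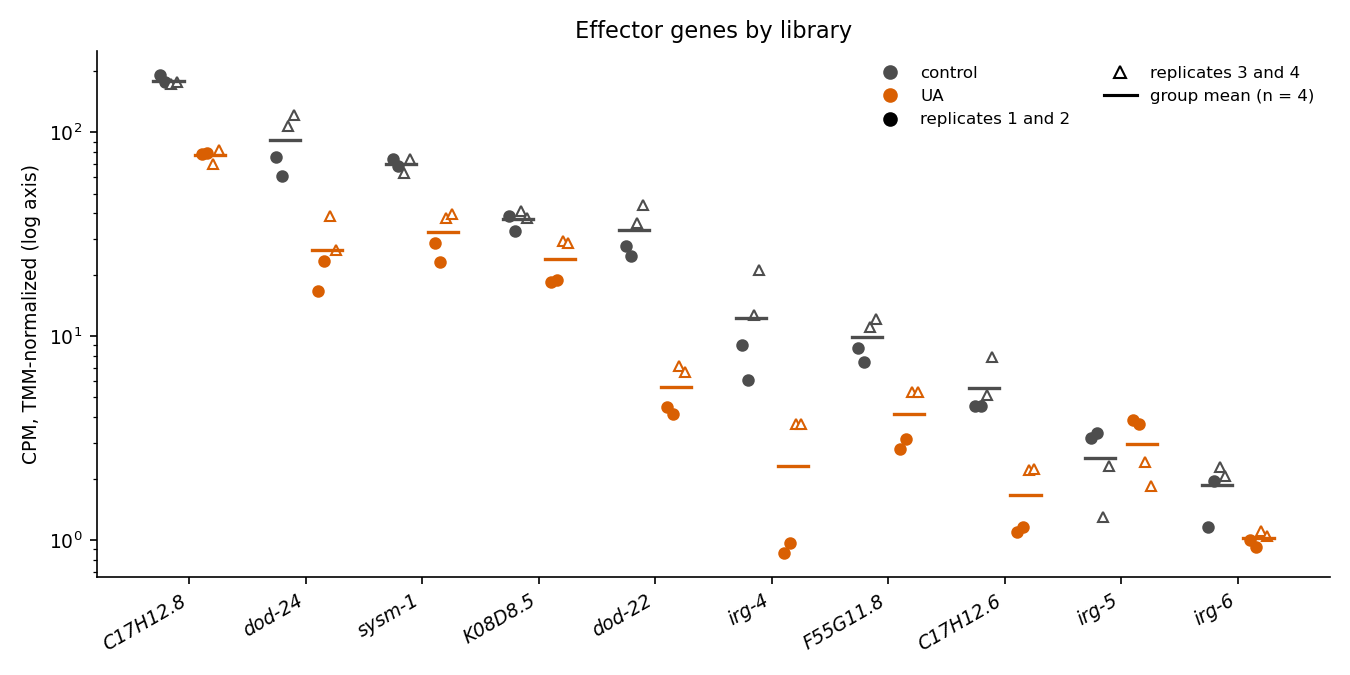
Levels of the 10 effector genes in each library, in CPM on a log axis, ordered by the mean in control. Gray marks are the 4 control and orange marks the 4 UA libraries, filled circles stand for replicates 1 and 2, open triangles for replicates 3 and 4, and bars for group means. In 9 genes all UA marks lie below all control marks, and in *irg-5* they overlap.

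The median log2 fold change of the 10 genes was -1.23, and it was -0.00 over all 13720 genes tested. In 9 of the 10 genes the 4 UA values lay all below the 4 control values, which held for 1.72% of all genes tested. The same 9 were differentially expressed genes (DEGs) by the thresholds of the study's methods, which ask for more than a 1.2-fold change with an unadjusted p under 0.05. The study applied these thresholds to DESeq2, whereas here they were applied to edgeR's test, so the DEGs are not the study's own calls. By this rule 5.67% of all genes tested were DEGs, and 1.55% were DEGs lower in UA. These counts describe how the genes were picked and are not read as evidence.

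Comparison of the libraries of equal replicate number gave the same direction for these 9 genes in 4 of 4 pairs. With all UA values below all control values, any pairing would give this, so it is not read as evidence. The log2 ratios of UA to control for *dod-22* were -2.62, -2.57, -2.32 and -2.72 in replicates 1 to 4, so that the difference was almost the same in each pair. C17H12.8 was as even, with log2 ratios of -1.29, -1.16, -1.30 and -1.10. *irg-4* varied most among the genes lower in UA, from -3.39 in replicate 1 to -1.78 in replicate 3, with a standard deviation of 0.66 over the 4 ratios. *irg-6* had a ratio of only -0.21 in replicate 1 and of -1.08, -1.05 and -0.99 in the others. *irg-5* had positive log2 ratios of 0.29, 0.13 and 0.89 in replicates 1 to 3 and one of -0.32 in replicate 4.

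**Figure D2:**
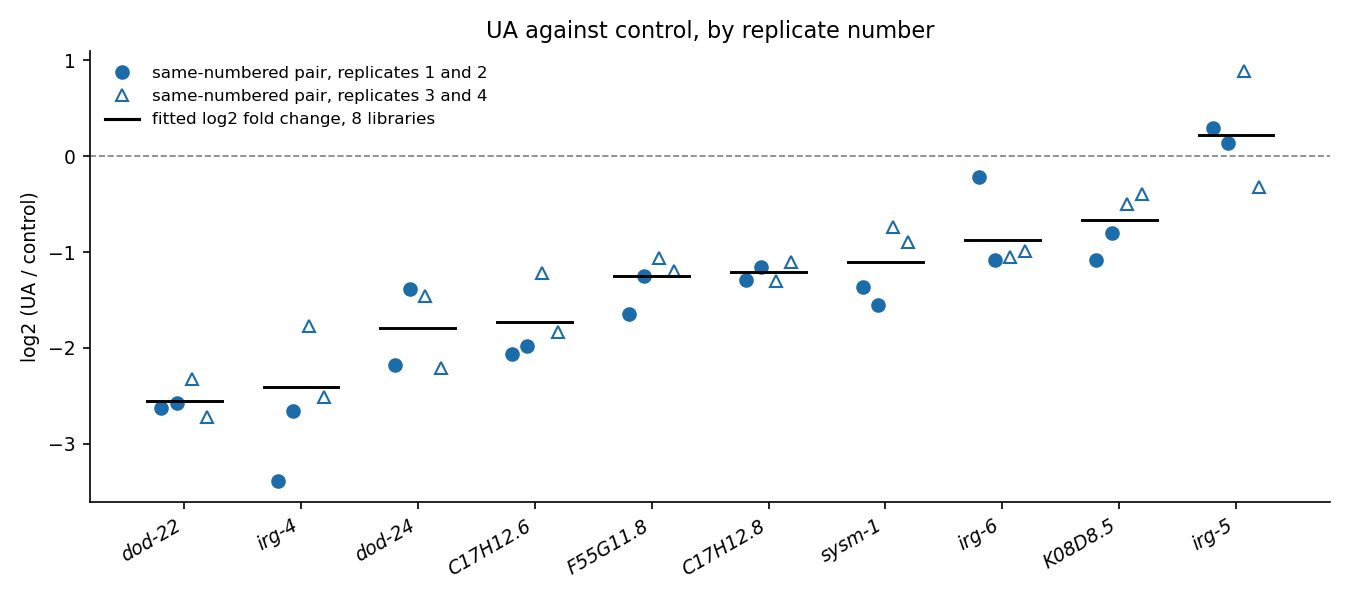
Log2 ratio of UA to control between libraries of the same replicate number (circles for replicates 1 and 2, triangles for replicates 3 and 4), with the fitted log2 fold change over 8 libraries as a bar. The ratios of *dod-22* and C17H12.8 are tightly grouped, those of *irg-4* range from -3.39 to -1.78, and only *irg-5* has ratios above 0.

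Levels of different genes were compared per kilobase of exon, as CPM divided by exon length. In control, C17H12.8 (163.1 ± 7.91 CPM per kilobase, SD, n = 4) and *sysm-1* (148.4 ± 10.8, SD, n = 4) stood at the top, with overlapping values, at percentiles 94.9 and 94.2 of the genes tested. *dod-24* followed at 79.0 ± 24.1 (SD, n = 4) and overlapped with neither *sysm-1* above it nor K08D8.5 below it. K08D8.5 (35.3 ± 3.26, SD, n = 4) and *dod-22* (26.4 ± 6.93, SD, n = 4) overlapped. The values of *irg-4* (5.53 to 19.1 over the 4 libraries), F55G11.8 (8.48 ± 1.84) and C17H12.6 (5.05 ± 1.47, SD, n = 4 for each) formed a chain in which neighbors overlapped. *irg-5* (2.27 ± 0.84) and *irg-6* (1.11 ± 0.29, SD, n = 4 for each) came last and also overlapped. The set thus spanned a 146.6-fold range of levels per kilobase in control, around a median of 7.89 CPM per kilobase over all genes tested. In UA, *irg-4* was at 2.09 ± 1.46 CPM per kilobase (SD, n = 4), below F55G11.8 (3.56 ± 1.17) and *irg-5* (2.64 ± 0.88, SD, n = 4 for each) in the order of means, though the values of these 3 genes overlapped. Of the 10 genes, 7 were above the median of all genes tested in control, and 4 were above it in UA. *dod-22* went from percentile 65.2 in control to percentile 42.6 in UA.

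The level of most of these genes also differed between the replicate subsets, a contrast on which they were not picked but which was itself defined from the data. In a fit with the condition and the replicate subset as terms, 8 of the 10 had a higher level in replicates 3 and 4, with a median log2 difference of 0.51 over the set and of -0.00 over all genes tested. The adjusted p of edgeR was under 0.05 for 7 of the 10, of which 6 were higher and *irg-5* was lower in replicates 3 and 4, against 14.3% of all genes tested in either direction (7.23% higher and 7.06% lower). *irg-4* differed most, 2.80-fold higher in replicates 3 and 4 (log2 difference 1.49). The differences for C17H12.6, *dod-24*, F55G11.8 and *dod-22* were 1.64-fold, 1.65-fold, 1.59-fold and 1.55-fold. *irg-5* went the other way, with a log2 difference of -0.84. C17H12.8 (log2 difference -0.06), *irg-6* (0.33) and *sysm-1* (0.25) did not pass. Markers of the intestine were read in the same fit. Of 12 such markers, 11 were higher in replicates 3 and 4, as were 6766 of the 13720 genes tested. The median log2 difference of the markers was 0.22, and 5 of them passed an adjusted p under 0.05 in edgeR (*asp-1*, *cpr-6*, *ifb-2*, *pept-1* and *vha-6*). These 5 were higher in replicates 3 and 4 in UA as well. By contrast, *act-5* had 128.2 and 140.6 CPM in UA replicates 1 and 2 and 113.8 and 106.3 CPM in UA replicates 3 and 4. *elt-7* was also lower there in UA, with 6.47 and 7.06 against 5.89 and 4.99 CPM. The summed level of the 12 markers was 2006 and 1798 CPM in control replicates 1 and 2 and 2955 and 2859 CPM in control replicates 3 and 4. In UA the sum was 2148 and 2209 CPM against 2687 and 2701 CPM. Much of it was *asp-1*, with 830.2, 746.7, 1526.9 and 1385.7 CPM in control replicates 1 to 4. Among other markers tested, 2 of 2 of the hypodermis were higher in replicates 3 and 4 (median log2 difference 0.28). The same held for 3 of 4 of neurons (0.03), 3 of 5 of germline and oocytes (0.02) and 0 of 4 of muscle (-0.05). Of these, 0 passed as higher, and *puf-5* of the germline list passed as lower. The part of the intestine markers in the subset difference of the effectors was not tested.

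Within each replicate subset, the 9 genes kept the lower level in UA, which follows from the lack of overlap between their conditions. The fitted log2 fold change of *irg-4* was -3.03 in replicates 1 and 2 and -2.19 in replicates 3 and 4. That of *sysm-1* was -1.44 and -0.82, and that of K08D8.5 was -0.94 and -0.45. *dod-22* (-2.59 and -2.53), C17H12.8 (-1.22 and -1.20) and *dod-24* (-1.76 and -1.81) showed almost the same value in both. The difference of the effect between the replicate subsets, tested with an interaction term in edgeR, passed an adjusted p under 0.05 for 0 of the 10 genes (0.0802% of all genes tested), and an unadjusted p under 0.05 for 2, *sysm-1* and K08D8.5, where 8.55% of all genes tested had such a p. It was 0.63 on the log2 scale for *sysm-1* (edgeR, adjusted p = 0.211) and 0.50 for K08D8.5 (edgeR, adjusted p = 0.26). Without control replicate 4, *sysm-1* passed, with 0.73 on the log2 scale (edgeR, adjusted p = 0.0121).

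The genes around the set were examined next, by taking all genes named after the same 7 clones of the genome sequence (128 genes besides the set, of which 40 could be tested). Among the 40, 6 were DEGs higher in UA and 4 were DEGs lower in UA, where 4.12% and 1.55% of all genes tested were called in these directions. The median log2 fold change of the 40 genes was -0.05. Since the set had been picked for its values, its neighbors are what that choice left over. At an adjusted p under 0.05 in edgeR's test 0 of the 40 passed (0.0948% of all genes tested did), against 10 at an unadjusted p under 0.05 and 3 by DESeq2's adjusted p (1.39% of the genes it gave one). The replicate number was also used as a block, which assumes that equal numbers are pairs. That fit called 5 of the 40 at an adjusted p under 0.05 (0.838% of all genes tested).

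The 4 neighbors lower in UA all lie in the 88.5 kb stretch of chromosome IV that holds K08D8.5, *irg-6*, *dod-24*, F55G11.8 and *dod-22*. C32H11.4 had 44.8, 32.9, 69.4 and 75.4 CPM in control and 4.599, 6.09, 29.5 and 22.7 CPM in UA. Its log2 fold change was -1.82 (standard error 0.54, edgeR, adjusted p = 0.396, and 0.0175 with the replicate block), and it shared with *irg-4* and *dod-24* the lower values of replicates 1 and 2. F55G11.2, on the other side of *dod-22* from F55G11.8, fell from 5.90 ± 1.29 to 3.29 ± 0.71 CPM (SD, n = 4 for each; log2 fold change -0.84, edgeR, adjusted p = 0.261, and 0.0244 with the block). *dct-19* had 0.54 ± 0.19 CPM in control and 0.18 ± 0.09 in UA (SD, n = 4 for each; log2 fold change -1.57, edgeR, adjusted p = 0.33, and 0.211 with the block), few counts for a firm value. *mbug-1*, named here after its values were seen, fell from 119.3 ± 26.6 to 73.2 ± 16.1 CPM (SD, n = 4 for each; log2 fold change -0.71, edgeR, adjusted p = 0.307, and 0.00265 with the block).

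The stretch holds 31 protein-coding genes, of which 17 could be tested. From K08D8.5 to its far end at *mbug-1*, 11 genes were tested, and 5 of them belong to the set picked for its values. Of the other 6, 5 had a log2 fold change below 0, as did 51.1% of all genes tested, the exception being *dod-21* at 0.27 ± 0.05 CPM in control (SD, n = 4; log2 fold change 0.16, standard error 0.58). At the near end, from K08D8.6 to K08D8.4, 4 of the 6 genes tested were below 0, none was a DEG lower in UA, and K08D8.6 rose from 16.3 ± 2.996 to 26.8 ± 9.51 CPM (SD, n = 4 for each; log2 fold change 0.72, edgeR, adjusted p = 0.458, and 0.0318 with the block). With the replicate block, C32H11.3, a neighbor of C32H11.4, was also a DEG lower in UA (log2 fold change -0.62, edgeR, adjusted p = 0.351, and -0.63 with no block). K08D8.4, which is 648 bases from K08D8.5 and on the same strand, had a log2 fold change of -0.20 (standard error 0.20). The division at K08D8.5 was made after the values were seen and has no test.

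**Figure D3:**
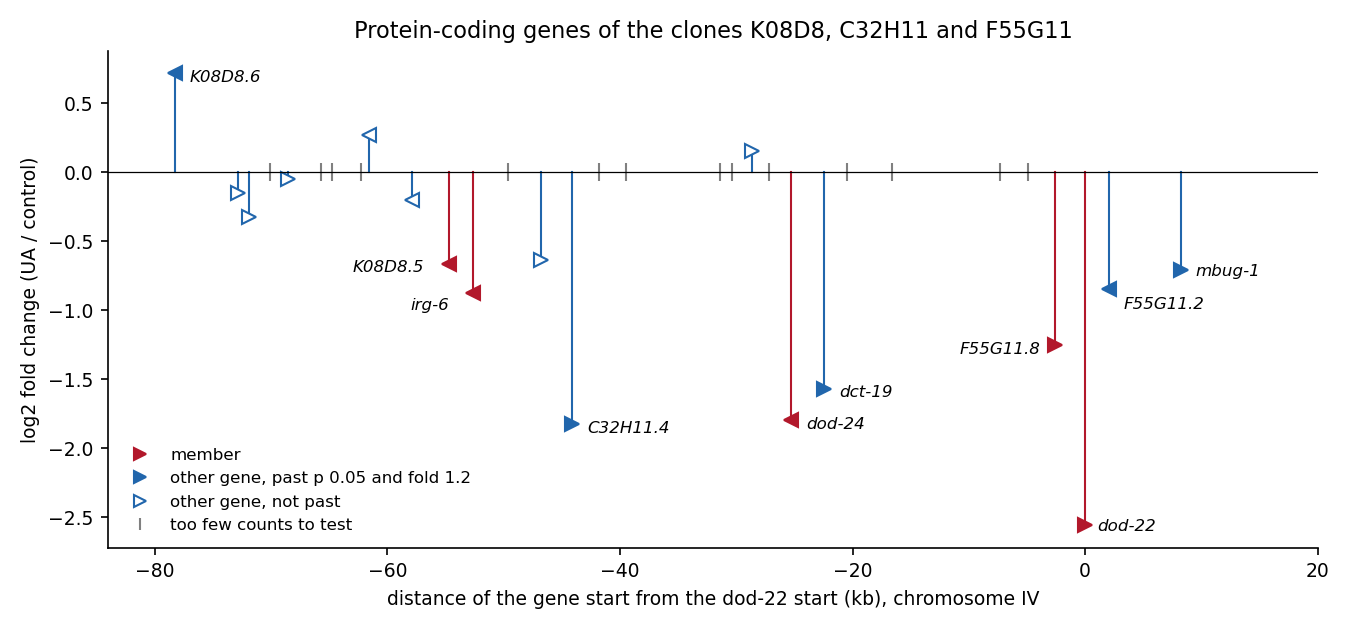
Log2 fold change (UA over control) of the protein-coding genes of 3 adjoining clones on chromosome IV, against the distance of their start from that of *dod-22* in kilobases. Arrowheads point along the strand, red marks the genes of the set, blue the other genes, filled those past the DEG thresholds, and gray ticks the 14 genes with too few counts. The DEGs lower in UA lie between K08D8.5 and *mbug-1*, and 4 of the 6 genes tested before K08D8.5 are also below 0.

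On the other clones, the neighbors called as DEGs were higher in UA. *cest-4*, a carboxylesterase family gene on the clone of C17H12.8, rose from 12.7 ± 1.23 to 22.03 ± 4.18 CPM (SD, n = 4 for each; log2 fold change 0.80, edgeR, adjusted p = 0.0956, and 0.011 with the block). The noncoding F35E12.13, on the clone of *irg-5*, had 0.19 ± 0.05 CPM in control and 0.35 ± 0.10 in UA (SD, n = 4 for each; log2 fold change 0.89, edgeR, adjusted p = 0.591). It had only 92 counts over the 8 libraries, and it was no DEG in 5 of the 8 fits that left out 1 library (control replicates 1, 2 and 4 and UA replicates 1 and 4). The most abundant genes of this list, both on the clone of *sysm-1*, were *rpl-32*, a ribosomal protein gene (log2 fold change 0.01), and T24B8.7 (-0.03).

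The p38 cascade and 11 regulators and partners of immune genes were then read out at the RNA level. Of the 18 genes in this list, 3 were DEGs higher in UA, 0 were DEGs lower in UA, and 15 did not pass, where 4.12% of all genes tested were DEGs higher and 1.55% were DEGs lower in UA. Their median log2 fold change was 0.06. *pmk-1* itself had 17.3 ± 1.74 CPM in control and 17.2 ± 1.203 in UA (SD, n = 4 for each; log2 fold change -0.01, standard error 0.10). The kinase genes *sek-1* (log2 fold change -0.04, standard error 0.08) and *nsy-1* (0.07, standard error 0.07) and the target factor *atf-7* (0.03, standard error 0.04) were also near 0. *tir-1*, the adaptor at the head of the cascade, had 12.56 ± 1.21 CPM in control and 14.6 ± 0.74 in UA (SD, n = 4 for each), and its log2 fold change of 0.22 did not pass the fold limit. *skn-1*, a stress factor that PMK-1 can phosphorylate, was at 302.9 ± 11.3 and 303.4 ± 7.77 CPM (SD, n = 4 for each). The values of *pmk-1*, *sek-1*, *nsy-1* and *tir-1* are given for their place in the cascade and not by a rule.

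The 3 that rose act on the pathway or in the intestine. *vhp-1*, which encodes a MAPK phosphatase that counteracts PMK-1, had 37.0, 37.1, 34.6 and 40.9 CPM in control and 52.0, 51.9, 43.7 and 49.1 CPM in UA. Its log2 fold change was 0.39 (standard error 0.07, edgeR, adjusted p = 0.127, and 0.024 with the replicate block), and the conditions did not overlap. *elt-2*, the GATA factor of the intestine, had 4.46, 4.73, 6.55 and 6.54 CPM in control and 8.56, 9.87, 8.70 and 6.91 CPM in UA. Its log2 fold change was 0.61 (standard error 0.17, edgeR, adjusted p = 0.343, and 0.202 with the block), with 1.01 in the first replicate subset and 0.25 in the other. *pqm-1*, a zinc finger factor of insulin signaling targets, rose from 36.1 ± 5.68 to 45.6 ± 2.62 CPM (SD, n = 4 for each; log2 fold change 0.34, edgeR, adjusted p = 0.422, and 0.0773 with the block), and it was no DEG without control replicate 3. By an adjusted p under 0.05, edgeR called 0 of the 18 genes (4 at an unadjusted p under 0.05), DESeq2 called 2 (1.39% of the genes it gave an adjusted p) and the replicate block 1 (0.838% of all genes tested), which was *vhp-1*.

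The 4 further p38 targets listed from background knowledge, with earlier results of these data known, were all DEGs lower in UA, as were 1.55% of all genes tested. Because those results were known, this count is not read as evidence. *clec-4*, a C-type lectin gene, had 3.28, 2.27, 5.88 and 6.63 CPM in control and 0.729, 0.830, 2.02 and 2.65 CPM in UA (log2 fold change -1.54, standard error 0.46). *clec-67*, of the same family, had 4.79, 3.87, 8.24 and 10.02 CPM in control and 1.002, 1.55, 3.03 and 3.86 CPM in UA (log2 fold change -1.51, standard error 0.43). Both resemble *irg-4* in having the lower values in replicates 1 and 2 of each condition, and the conditions overlapped in *clec-4* but not in *clec-67*. *lys-2*, a lysozyme gene, fell from 126.6 ± 21.9 to 90.9 ± 14.3 CPM (SD, n = 4 for each; log2 fold change -0.48). *clec-85* fell from 108.2 ± 13.8 to 88.4 ± 7.76 CPM (SD, n = 4 for each; log2 fold change -0.29), and it was no DEG in 3 of the 8 fits that left out 1 library (control replicates 3 and 4 and UA replicate 1). The adjusted p in edgeR's test was 0.405, 0.357, 0.357 and 0.44 for *clec-4*, *clec-67*, *lys-2* and *clec-85*, and 0.00927, 0.00927, 0.0223 and 0.049 with the replicate block.

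The other genes with an *irg* or *dod* name went both ways. Of 13 such genes, 12 could be tested, 2 were DEGs higher and 2 were DEGs lower in UA, against 4.12% and 1.55% of all genes tested, and their median log2 fold change was 0.11. *dod-6* fell from 66.6 ± 9.24 to 33.9 ± 14.0 CPM (SD, n = 4 for each; log2 fold change -0.97, edgeR, adjusted p = 0.306, and 0.024 with the block). *dod-17* fell from 4.92 ± 0.82 to 2.83 ± 0.39 CPM (SD, n = 4 for each; log2 fold change -0.80, edgeR, adjusted p = 0.188, and 0.0554 with the block). *irg-2* rose from 2.49 ± 0.89 to 5.52 ± 1.99 CPM (SD, n = 4 for each; log2 fold change 1.15, edgeR, adjusted p = 0.333, and 0.0108 with the block). *dod-19* rose from 132.7 ± 8.70 to 205.3 ± 38.9 CPM (SD, n = 4 for each; log2 fold change 0.63, edgeR, adjusted p = 0.127, and 0.00921 with the block). The most abundant of them in control, *irg-7* (log2 fold change 0.20, standard error 0.12) and *dod-23* (-0.45, standard error 0.25), did not pass. At an adjusted p under 0.05, edgeR called 0 of the 12 (4 at an unadjusted p under 0.05), DESeq2 called 3 (1.39% of the genes it gave an adjusted p) and the replicate block 3 (0.838% of all genes tested).

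**Figure D4:**
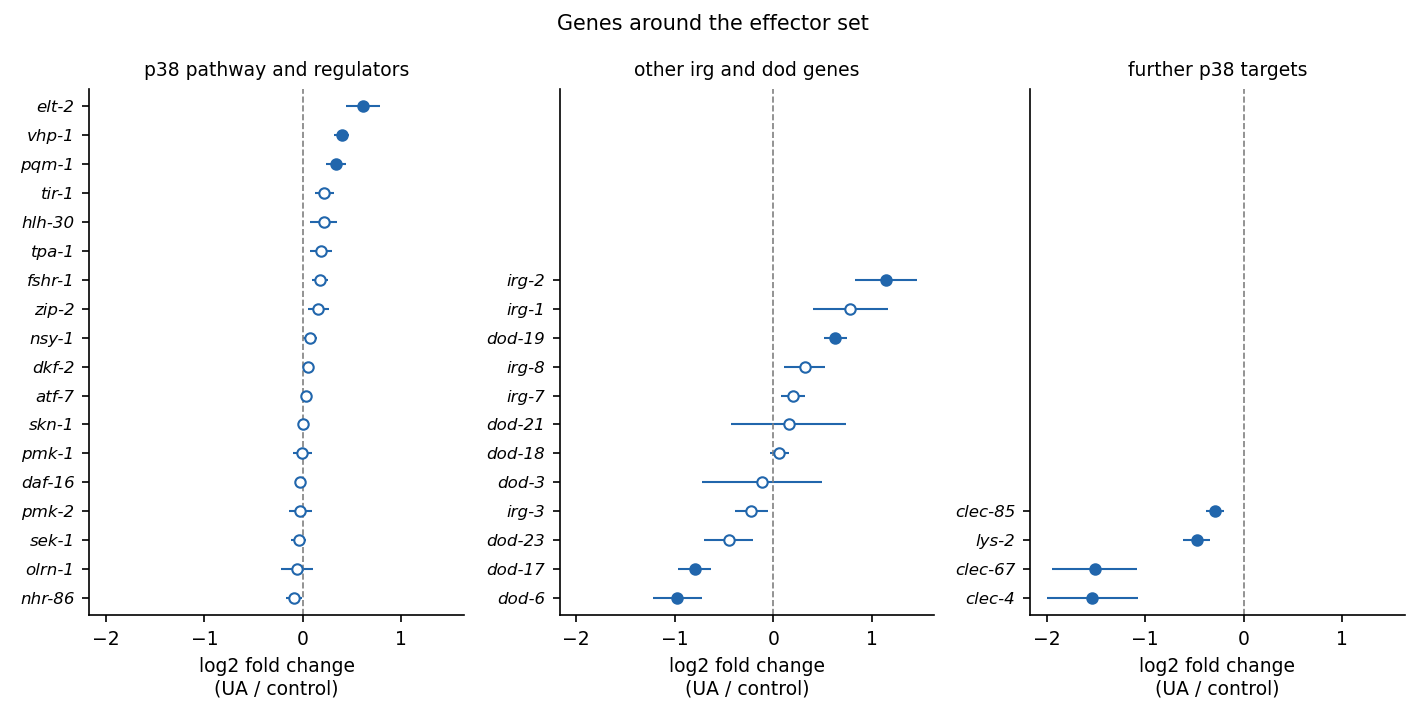
Log2 fold change (UA over control) with its standard error as a bar for the p38 pathway and regulators (left), the other *irg* and *dod* genes (middle) and the further p38 targets (right), filled where the gene was a DEG. The kinases lie near 0, *vhp-1* at 0.39 and *elt-2* at 0.61, and the 4 further targets below 0, down to -1.54 for *clec-4*.

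Markers of the tissues were read beside these values, since the effectors are known mainly from the intestine. Of 12 intestine markers, 2 were DEGs higher in UA (*elt-2*, and the transporter gene *pgp-3* with a log2 fold change of 0.32), 0 were DEGs lower in UA, and none was at 0 counts, where 4.12% and 1.55% of all genes tested were called. *pgp-3* was no DEG in 3 of the 8 fits that left out 1 library (control replicate 3 and UA replicates 3 and 4). The intestine markers summed to between 1798 and 2955 CPM in the control libraries and to between 2148 and 2701 CPM in the UA libraries, ranges that overlap. The protease genes *asp-1* and *cpr-6*, the most abundant of them, had log2 fold changes of -0.13 (standard error 0.23) and 0.19 (standard error 0.12). The 10 effectors together summed to between 386.2 and 499.2 CPM in control and to between 156.2 and 197.8 CPM in UA. These ranges did not overlap, which reflects how the genes were picked and is not read as evidence. The largest parts of the sum in control were C17H12.8 (mean 178.9 CPM), *dod-24* (91.4 CPM) and *sysm-1* (69.8 CPM). Markers of muscle (4 genes), neurons (4) and germline and oocytes (5) were all detected and held 0 DEGs. Of 4 hypodermis markers, *rol-6* and *bli-1* had too few counts for a test, and *col-19* was a DEG lower in UA (log2 fold change -0.54, standard error 0.20, with -1.03 in the first replicate subset and -0.10 in the other). It was no DEG in 4 of the 8 fits that left out 1 library (control replicates 1 and 4 and UA replicates 1 and 2). The last of them, *dpy-7*, had a log2 fold change of -0.52 (standard error 0.26), and it was called as a DEG when the replicate block was added. The part of tissue amounts in the values of the effectors was not tested.

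Finally, the genes whose levels followed those of the set over the 8 libraries were sought among 10926 genes with a mean of at least 1 CPM. Likeness was measured as the root mean square difference between the log2 CPM of a gene, centred on its own mean, and the mean centred profile of the 10 genes, with a median of 0.73 over the genes compared. The nearest gene was *ifc-1*, an intermediate filament gene, at 0.21 log2 units, with 2.46 ± 0.64 CPM in control and 1.14 ± 0.36 in UA (SD, n = 4 for each). K10D11.2 followed at 0.26, *clec-209* at 0.26, *asp-14*, an aspartyl protease family gene, at 0.26 and *dod-6* at 0.28. The fitted log2 fold changes of K10D11.2, *clec-209* and *asp-14* were -1.29, -0.86 and -1.32. These genes were picked for likeness to the mean profile. Their low values in UA replicates 1 and 2 and their negative fold changes follow from that choice. Within the set, F55G11.8 (0.14) and *sysm-1* (0.19) were nearest to the mean profile, and *irg-4* (0.84) and *irg-5* (1.04) were farthest from it.

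**Figure D5:**
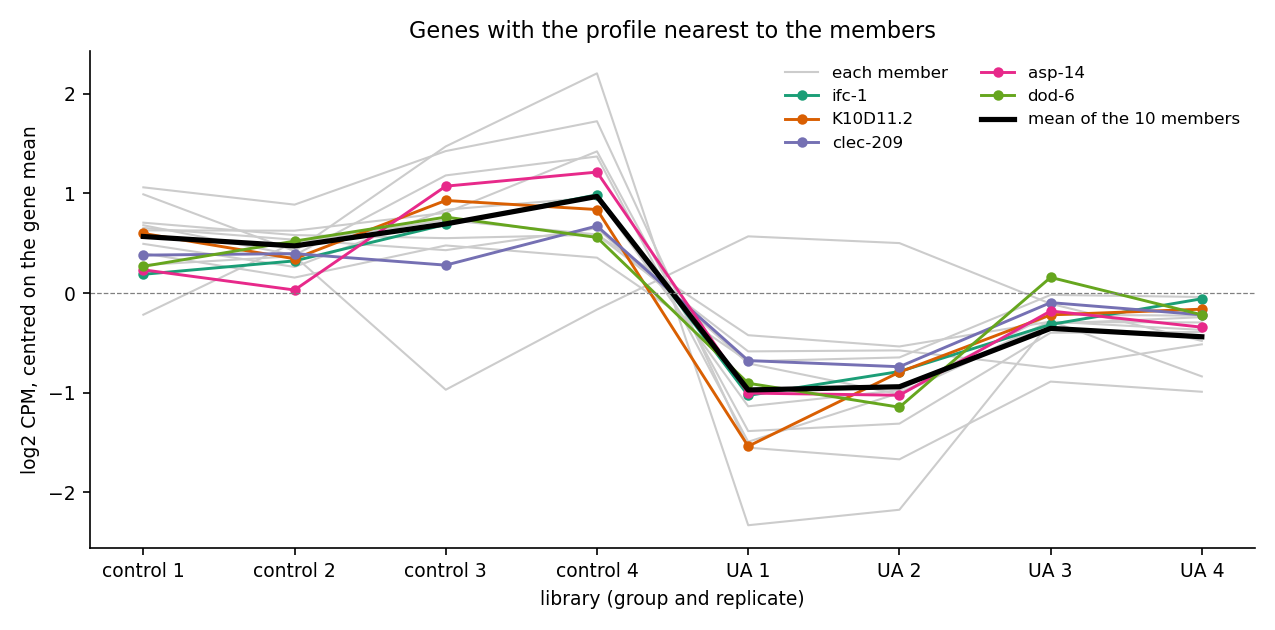
Log2 CPM centred on the mean of each gene, over the 4 control and 4 UA libraries. The black line is the mean of the 10 genes, gray lines are the single genes of the set, and colored lines are the 5 other genes nearest to the mean. Colored lines were picked for likeness to the black line, and all are lowest in UA replicates 1 and 2. The gray line that is highest there is *irg-5*.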

How the data were processed

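RNA of 4 control and 4 UA populations of whole N2 nematodes was sequenced as stranded, poly(A)-enriched libraries. Per the methods and labels, the authors removed poor reads, used HISAT2 for alignment to WBcel235, and tallied fragments per RefSeq gene using featureCounts 1.6.2. The deposited values are raw counts, with the summed exon length of each gene. Whether they stand for fragments or reads was not settled here. Strand use in the counting is not given in the sources used here. Of 46928 genes, 46925 were matched to a RefSeq locus.

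Genes were kept with filterByExpr (13720), normalized with TMM and compared with edgeR's quasi-likelihood test (version 4.0.16, run in R 4.3.3), with 1 term for the condition and Benjamini-Hochberg adjustment over all genes tested. Standard errors were derived from its F statistic. DESeq2 1.42.0 was an alternative, as were other scalings, no filter, a replicate block, a term for the replicate subset, each subset alone and each library left out. Log2 CPM had a prior count of 2. The comparison of UA with control was tested on simulated counts that had a condition effect and no replicate subsets. The block, subset and interaction fits were not tested in this way. Figures and summaries were made in Python 3.11.15 with matplotlib 3.10.9.

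Deviations of libraries of equal number from their condition mean correlated across genes by 0.191 to 0.353 in the 4 pairs. The numbers were taken as pairs, and blocked values are printed where they change a call. Different numbers of 1 replicate subset correlated by 0.15 to 0.333 (mean 0.247, against 0.275 for equal numbers), and numbers of different subsets by -0.324 to -0.085. The correlation thus follows the subset and hardly the number, and the labels name no pairs. The pairing by number is therefore an assumption on which the blocked values depend. The genes of the set, the lists and the replicate subsets were chosen with earlier results of these data known. Beside the set, named genes are the DEGs of each list (beyond 6, the 3 largest rises and 3 largest falls), its 2 most abundant genes and the 5 nearest profiles. Without protein sequences, the related genes were taken by clone and not by sequence similarity.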

Additional observations from a re-analysis of the deposited data

Results flagged for a closer look

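Among the 40 genes named by rule, 80 groups of 4 libraries were examined for a library far from the others, of which chance flags about 1 in 20, and 2 were found. T24B8.7, on the clone of *sysm-1*, had 304.5 CPM in 1 control library and 267.3 to 273.1 CPM in the other 3, a gap of 0.843 of the whole range. *atf-7* had 290.9 CPM in 1 UA library and 277.3 to 278.9 CPM in the other 3, a gap of 0.881 of the range. None of the 10 effector genes was found in this way.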

How the results depend on the processing

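The 10 genes kept their direction in every fit run, and their median log2 fold change was between -1.32 and -1.16 with each library left out and -1.44 among replicates 1 and 2 alone. *irg-5* was nearest to a change of direction (0.01 to 0.39 with a library left out). *sysm-1* moved from -1.11 to -1.44 among replicates 1 and 2 and to -0.82 among replicates 3 and 4. K08D8.5 moved from -0.66 to -0.94 and -0.45, and *irg-4* from -2.41 to -3.03 and -2.19, in the same order. Over all genes, 778 DEGs were called, 1616 among replicates 1 and 2 alone, 1094 with the replicate block and 641 to 937 with a library left out. Genes at an adjusted p under 0.05 numbered 13, against 169 with DESeq2, 115 with the replicate block, 219 with the replicate subset term, 546 among replicates 1 and 2, 26 among replicates 3 and 4, 45 without a filter and 5 to 16 with a library left out. Of the neighbors on the same clones, 10 were DEGs (8 to 12 with a library left out, 11 with the block, which added C32H11.3 of the chromosome IV stretch) and 0 passed an adjusted p under 0.05 in edgeR. Among the other *irg* and *dod* genes, the block gave 3 DEGs higher and 3 lower, against 2 and 2, and among the hypodermis markers 2 lower, against 1. It moved the count of DEGs in none of the other lists (p38 pathway, further targets and the other marker lists). The interaction with the replicate subset was called for 0 of the 10 genes, and for 0 to 1 with a library left out. The replicate subset difference was called for 7 of them, and for 5 to 8 with a library left out, alternatives chosen after seeing the data. The search for related proteins at a stricter limit was not run, since no protein sequences were at hand. Low counts limit F35E12.13 (92 over the 8 libraries), *dod-21* (98) and *dct-19* (124).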
